A study of Mus musculus with 6 samples.

Results

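To examine how smooth muscle contractile genes and their transcription factor differed after Hdac4 knockdown, 10 genes were followed among the 53801 Ensembl genes counted in MC3T3-E1 cells: Acta2, Actg2, Tagln, Cnn1, Cnn2, Myh11, Myl9, Tpm2, Lmod1 and Srf. They were chosen by name, and each was matched to its gene identifier through its symbol. MC3T3-E1 is a mouse pre-osteoblast cell line. RNA was sequenced from cells infected with a lentivirus that expresses either a scrambled non-silencing RNA (Control, 3 libraries) or a short hairpin RNA against Hdac4 (Hdac4-knockdown, 3 libraries), and both groups carried the same ZsGreen1 and puromycin resistance vector and were selected with 5 μg/ml puromycin for 7 days. The labels list several Hdac4 hairpins without naming the one sequenced, and the study's text gives Hdac4-shRNA3, so that the knockdown rests on 1 hairpin in 1 cell line. The labels describe independent RNA samples and not separate infections, and p-values therefore measure the spread between these RNA samples.

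Smooth muscle cells contract when myosin slides along thin filaments built from smooth muscle actins, tropomyosin and calponin, and myosin is switched on by phosphorylation of its regulatory light chain. Many of these genes carry CArG boxes, the DNA motif bound by serum response factor (SRF). SRF works with 2 kinds of partner: the myocardin family (myocardin, MRTF-A and MRTF-B), which responds to actin assembly and drives cytoskeletal and contractile genes, and the ternary complex factors, which respond to growth factor signaling and drive immediate early genes. In mesenchymal cells, osteoblasts included, part of this program is used for stress fibers and adhesion.

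CArG boxes were located in RefSeq promoters (GRCm38.p6), from 250 bases before to 50 bases after the transcription start. The motif has 10 bases, a core of 6 A or T bases between CC and GG, and reads as the same pattern on both strands. A promoter was present for 7 of the 10 genes, all but Actg2, Tagln and Myh11. Of these 7, 3 held a match, and 1.63% of all 32817 promoters did. The genes had been picked as contractile and SRF-driven genes. These shares are therefore a description and not a test for an excess of matches. The windows below show the matches in capitals with the bases around them, read along the gene's strand. They were chosen because they hold an exact match in the promoters of Srf, a calponin gene and a light chain gene.
Srf, chr17:46556195-46556264, minus strand: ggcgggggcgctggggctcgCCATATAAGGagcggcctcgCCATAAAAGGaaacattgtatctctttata
Cnn2, chr10:79988524-79988573, plus strand: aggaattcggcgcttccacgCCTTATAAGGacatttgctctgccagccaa
Myl9, chr2:156775283-156775332, plus strand: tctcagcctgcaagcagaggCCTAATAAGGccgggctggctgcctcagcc
When 1 base of the core was allowed to be C or G, a rule added after the exact search, 9.99% of all promoters held a match, and Acta2 joined with a pair of matches, starting 84 and 34 bases before its RefSeq start. This window lies inside the span given for Acta2 below, which comes from GENCODE and begins further upstream.
Acta2, chr19:34255378-34255477, minus strand: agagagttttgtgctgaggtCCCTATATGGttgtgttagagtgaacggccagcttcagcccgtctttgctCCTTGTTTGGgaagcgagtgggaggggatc
No match under either rule was found in the promoter windows of Cnn1, Tpm2 and Lmod1. A match is a description of the letters and not evidence of binding. The 4 genes shown did not move together: Acta2 and Srf were lower in Hdac4-knockdown libraries, Myl9 was higher, and Cnn2 did not pass the test, as described below.

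Reads counted on genes numbered 29096544 to 31651826 per library. Counts were scaled by the TMM method and are given as CPM, the scaled count relative to library size. The groups were compared by edgeR's quasi-likelihood F test. Of all genes, 14531 passed a filter on low counts, and p-values were adjusted over these by the Benjamini-Hochberg method. Genes were called where the adjusted p-value was under 0.05 and the size of the log2 fold change was above 0.05, the thresholds that the study states. Hdac4, the targeted gene, was at 40.7, 40.2 and 39.9 CPM in Control libraries and 30.7, 28.8 and 29.5 CPM in Hdac4-knockdown libraries (log2 fold change -0.44, SE 0.057, adjusted p = 8.98e-07). The identity of the cells was examined with marker lists. Of 10 osteoblast markers, 7 were tested, 6 were called higher and 1 lower, beside 38.0% and 37.1% of all genes tested. Their summed level was 4769 to 4781 CPM in Control and 21436 to 22275 CPM in Hdac4-knockdown libraries, and Alpl had 3 counts or fewer in every library. The collagen genes Col1a1 (338 to 11015 CPM) and Col1a2 (1213 to 8572 CPM) carried the summed rise, whereas Spp1 fell from 3154 to 2046 CPM. Dlx5 rose from 0.191 to 8.32 CPM. All 10 skeletal muscle markers, Myod1, Myog and Pax7 among them, were called lower, where 37.1% of all genes tested were. Their summed level was 385 to 400 CPM in Control and 44.4 to 45.7 CPM in Hdac4-knockdown libraries. Chrna1 fell from 232 to 19.7 CPM and Myf5 from 26.9 to 3.19 CPM. The Control libraries of a line labelled pre-osteoblast thus carried myogenic RNA. The labels used here do not say whether both groups came from the same stock of cells, and a difference in stock and the knockdown cannot be told apart in any comparison below. In bulk RNA, fewer cells of a type and less RNA per cell cannot be told apart. Of 10 pericyte and mural markers, 6 were tested, 2 were called higher and 3 lower, beside 38.0% and 37.1% of all genes, and Kcnj8 was at 0. Cspg4 rose from 51.6 to 443 CPM and Pdgfrb from 139 to 492 CPM. Notch3 fell from 118 to 19.7 CPM, and Des, described below, fell as well. Summed endothelial markers were at 0.36 to 0.668 CPM in Control and 5.65 to 6.73 CPM in Hdac4-knockdown libraries, with Emcn at 0, and macrophage markers at 1.64 to 2.85 and 5.46 to 6.39 CPM, with Adgre1 at 0. Vwf (0.192 CPM in Control and 3.11 CPM in Hdac4-knockdown libraries) and Pecam1 (0.214 and 2.38 CPM) carried most of the endothelial rise. The other 6 endothelial markers had too few counts to be tested. Lyz2 (0.0891 and 2.66 CPM) carried most of the macrophage rise, and Csf1r rose from 0.147 to 0.686 CPM. Cd68 was not called (1.78 and 2.05 CPM, adjusted p = 0.454 from edgeR), and the other 5 were not tested. The part of any of these cell types in the results below was not tested.

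Among the 10 genes, Lmod1, Myl9 and Actg2 were higher and Acta2 was lower in Hdac4-knockdown libraries by more than 2-fold, Srf and Tpm2 were slightly lower, and Cnn2 did not pass the test. Tagln, Cnn1 and Myh11 had too few counts to be tested. Of the 7 tested genes, 3 were called higher, where 38.0% of all tested genes were, and 3 were called lower, where 37.1% were. The groups did not overlap for 6 of the 7, where this held for 76.8% of all genes tested. An adjusted p-value under 0.05 together with a log2 fold change beyond 1 was reached by 4 of the 7, where 27.1% of all genes did so. Of these 4, Acta2 was at -0.985 with upper quartile normalization, and Actg2 at 0.980 without Control replicate 1 and 0.925 without Hdac4-knockdown replicate 3. The median log2 fold change was -0.06, beside 0.014 for all genes tested, and it turned to 0.03 with upper quartile normalization, under which the median of all genes was 0.103, and to 0.56 without Control replicate 3, when Myh11 was tested as well.

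**Figure D1:**
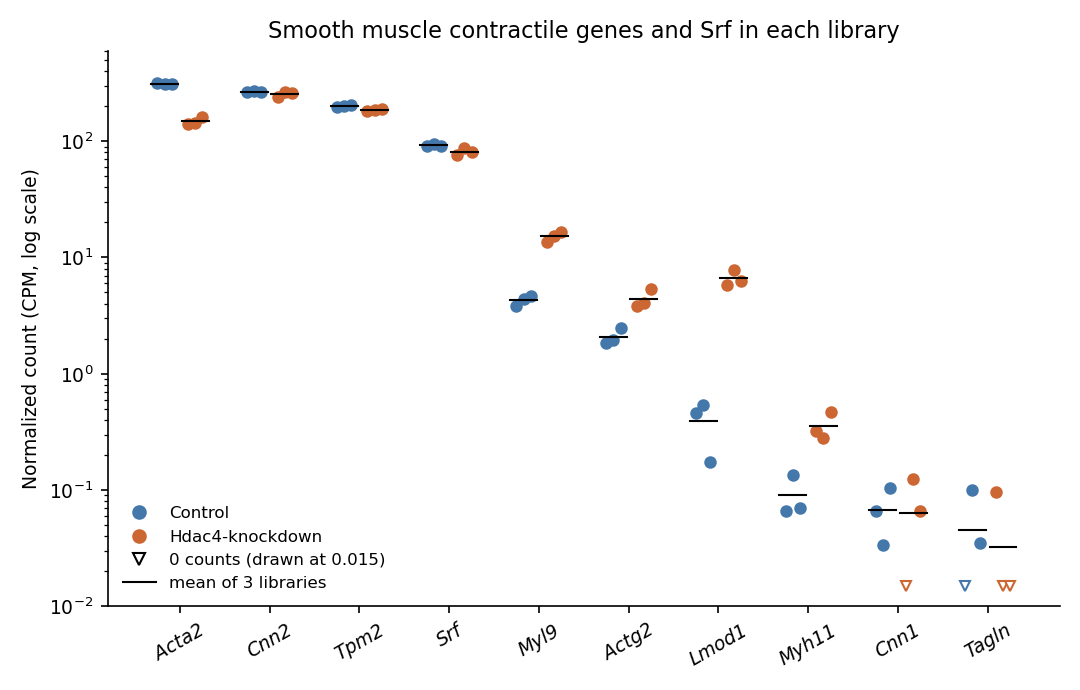
Normalized counts (CPM, log axis) of the 10 genes, ordered by their Control mean, with a point for each library and a line at the mean of each group. Acta2 lies lower and Myl9, Actg2 and Lmod1 lie higher in Hdac4-knockdown libraries, and Cnn1 and Tagln do not exceed 0.124 CPM in any library.

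Acta2 (ENSMUSG00000035783; GRCm38 chromosome 19, 34241090 to 34255590, minus strand) encodes smooth muscle α-actin, the actin of vascular smooth muscle and of myofibroblasts. It was at 314, 311 and 310 CPM in Control libraries and at 140, 144 and 160 CPM in Hdac4-knockdown libraries. The Control libraries lay within a few CPM of each other and every Hdac4-knockdown library was far below them. Acta2 fell to 47.5% of its Control level (log2 fold change -1.07, SE 0.047, adjusted p = 5.71e-14). A two-sided exact permutation test gave p = 0.1, the smallest that 3 libraries against 3 allow, and the same holds for each of the genes below whose groups did not overlap.

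Actg2 (ENSMUSG00000059430; chromosome 6, 83512905 to 83536265, minus strand) encodes the γ-actin of enteric smooth muscle and was expressed at a much lower level. It was counted 56, 59 and 70 times in Control libraries and 119, 130 and 160 times in Hdac4-knockdown libraries. These counts correspond to 1.83, 1.97 and 2.46 CPM and to 3.85, 4.03 and 5.32 CPM. Even the highest Control library was below the lowest Hdac4-knockdown library. Actg2 rose 2.11-fold, opposite to Acta2 (log2 fold change 1.08, SE 0.184, adjusted p = 2.95e-05). No stretch of 100 bases in an annotated transcript of Acta2 or Actg2 occurs in a transcript of another gene, so that their counts are separable at that length.

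Myl9 (ENSMUSG00000067818; chromosome 2, 156775420 to 156781658, plus strand) encodes the myosin regulatory light chain of smooth muscle, the site at which phosphorylation switches on contraction. It was at 3.80, 4.41 and 4.63 CPM in Control libraries and at 13.6, 15.4 and 16.5 CPM in Hdac4-knockdown libraries. The lowest Hdac4-knockdown library was well above the highest Control library. Myl9 rose 3.54-fold (log2 fold change 1.83, SE 0.112, adjusted p = 1.34e-11).

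Lmod1 (ENSMUSG00000048096; chromosome 1, 135324807 to 135368065, plus strand) encodes leiomodin 1, which nucleates actin filaments in smooth muscle. It was counted 14, 16 and 5 times in Control libraries and 181, 249 and 189 times in Hdac4-knockdown libraries. This is near the limit of detection in the first group, where 1 library had only 5 counts, and clearly above it in the second. Its level rose from 0.389 ± 0.189 to 6.62 ± 0.983 CPM (SD, n = 3), a 17.0-fold difference (log2 fold change 4.06, SE 0.249, adjusted p = 1.33e-11 from edgeR). With 1 library left out, the log2 fold change ranged from 3.71 to 4.34. Only 3.48% of the genes tested had a change as large. Since 1 of the Control libraries had fewer than 10 counts, Lmod1 was not tested when 10 counts were required in every library.

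Srf (ENSMUSG00000015605; chromosome 17, 46548329 to 46556175, minus strand), which encodes the transcription factor itself, was at 90.4, 94.2 and 91.5 CPM in Control libraries and at 76.2, 87.0 and 81.0 CPM in Hdac4-knockdown libraries. All Hdac4-knockdown libraries were below all Control libraries, by a small margin. Srf fell to 88.4% of its Control level (log2 fold change -0.18, SE 0.0508, adjusted p = 0.00396). With upper quartile normalization its log2 fold change was -0.09 and the adjusted p-value rose to 0.125.

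Tpm2 (ENSMUSG00000028464; chromosome 4, 43514711 to 43523765, minus strand) encodes β-tropomyosin, which lies along the actin filament in smooth and skeletal muscle. It was at 197, 199 and 205 CPM in Control libraries and at 181, 187 and 190 CPM in Hdac4-knockdown libraries. The groups were close together but did not overlap. Its log2 fold change was -0.10 (95% interval -0.190 to -0.020, adjusted p = 0.0253). The call was lost with fold change thresholds of 0.5 and 1, as was that of Srf. At the main threshold it was also lost with upper quartile normalization (adjusted p = 0.738), with library size alone (0.286), with at least 10 counts in every library (0.133), without Control replicate 3 (0.0755) and without Hdac4-knockdown replicate 1 (0.112).

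Cnn2 (ENSMUSG00000004665; chromosome 10, 79988584 to 79996062, plus strand) encodes calponin 2, the calponin found in many non-muscle cells. It was at 263, 273 and 265 CPM in Control libraries and at 242, 264 and 260 CPM in Hdac4-knockdown libraries. The groups overlapped. The log2 fold change was -0.06, with a 95% interval from -0.152 to 0.025 (adjusted p = 0.179), and its sign turned with upper quartile normalization, to 0.03.

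The other 3 genes are also used as markers of smooth muscle. Cnn1 (ENSMUSG00000001349; chromosome 9, 22099216 to 22109630, plus strand), the calponin of smooth muscle, was counted 2, 1 and 3 times in Control and 0, 4 and 2 times in Hdac4-knockdown libraries. Myh11 (ENSMUSG00000018830; chromosome 16, 14194535 to 14291372, minus strand), the smooth muscle myosin heavy chain, was counted 2, 4 and 2 times in Control and 10, 9 and 14 times in Hdac4-knockdown libraries. The Myh11 counts did not overlap, but at 0.279 to 0.465 CPM they remained very low in Hdac4-knockdown libraries. With no filter on low counts, Myh11 passed edgeR's test (adjusted p = 0.0227), as it did without Control replicate 3 (0.0275), and it did not pass in DESeq2 (adjusted p = 0.0559).

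Tagln (ENSMUSG00000032085; chromosome 9, 45929619 to 45936058, minus strand), which encodes the actin-binding protein SM22α, was counted 0, 3 and 1 times in Control and 3, 0 and 0 times in Hdac4-knockdown libraries. The libraries were prepared with a kit that does not mark strand, and 1349 of the 1988 exon bases of Tagln are shared with other genes, mainly with the antisense gene Gm48529. In Tagln-201, the longer protein-coding transcript, 610 of 1595 bases are shared with no gene, in runs of up to 385 bases. Gm48529 itself had 10 counts or fewer in every library. Without strand, reads in the shared bases cannot be told apart between Tagln and its neighbors, and how much this lowered the Tagln counts was not tested.

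Levels of the 7 tested genes were compared as CPM per kilobase of exon. In Control libraries the order was Acta2 (142 ± 0.813 CPM per kb, SD, n = 3), Cnn2 (109 ± 2.20), Tpm2 (68.8 ± 1.40), Srf (31.8 ± 0.679), Myl9 (3.68 ± 0.372), Actg2 (1.34 ± 0.210) and Lmod1 (0.0986 ± 0.0479). In Hdac4-knockdown libraries Cnn2 was first (104 ± 4.78 CPM per kb), followed by Acta2 (67.4 ± 4.86) and Tpm2 (64.0 ± 1.68), whose means differed by less than the SD of Acta2. Myl9 (13.0 ± 1.23), Actg2 (2.82 ± 0.514) and Lmod1 (1.68 ± 0.249) kept the same order below Srf (28.1 ± 1.87). The genes called higher were thus the lowest of the 7 tested genes, and they stayed below Acta2, Cnn2, Tpm2 and Srf after knockdown. The untested Cnn1 (0.0249 CPM per kb), Tagln (0.0227) and Myh11 (0.0118) lay below Lmod1 in Control libraries.

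The 22 paralogs of these genes, most of them the non-muscle or striated muscle forms, were examined next. Of the 20 tested, 4 were called higher and 13 lower, where 38.0% and 37.1% of all genes tested were, and their median log2 fold change was -0.43 (-0.34 with upper quartile normalization), beside 0.014 for all genes. The smooth muscle form and its striated muscle relatives moved in opposite directions among the leiomodins: Lmod2 and Lmod3, the leiomodins of heart and skeletal muscle, fell (log2 fold change -2.03, adjusted p = 5.96e-05, and -2.58, adjusted p = 1.00e-06, from edgeR). The skeletal α-actin gene Acta1 fell from 65.0 ± 2.01 to 17.9 ± 2.33 CPM (SD, n = 3; log2 fold change -1.86, adjusted p = 1.10e-14 from edgeR). The cardiac α-actin gene Actc1 fell from 4.03 ± 0.998 to 0.492 ± 0.0878 CPM (log2 fold change -3.02). An exact CArG box was found in 4 of the 19 paralogs with a promoter: Acta1, Actc1, Actg1, which fell, and Myl6, which rose. It was found in 1.63% of all promoters. With 1 base of the core allowed to be C or G, 6 of the 19 held a match, beside 9.99% of all promoters. The exact matches of the striated actins are shown here in capitals. The Actc1 window lies before the RefSeq start but inside the GENCODE span of the gene, which begins further upstream.
Acta1, chr8:123894819-123894868, minus strand: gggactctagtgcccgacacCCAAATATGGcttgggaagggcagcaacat
Actc1, chr2:114052893-114052942, minus strand: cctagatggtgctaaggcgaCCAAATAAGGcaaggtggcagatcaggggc
These striated genes moved in the same direction as the skeletal muscle markers given above, and the part of the myogenic RNA in their fall was not tested.

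**Figure D2:**
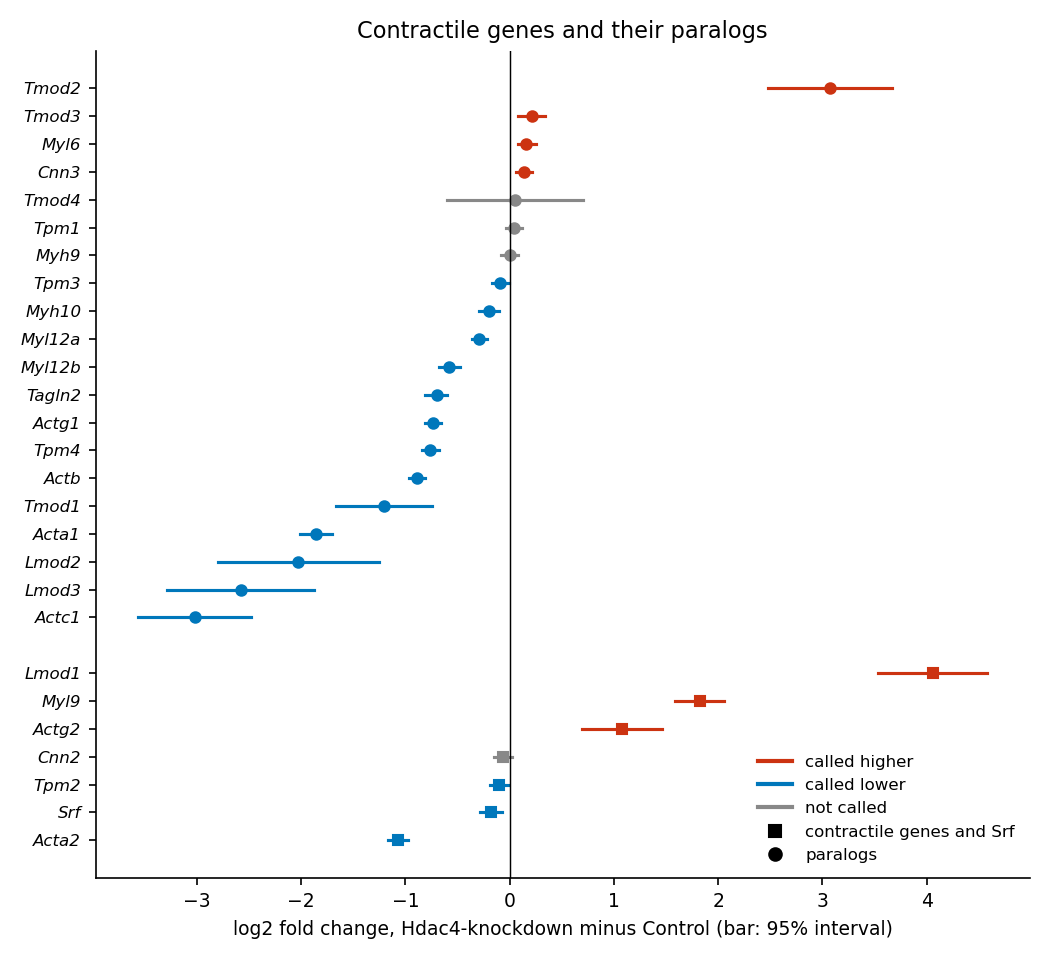
Log2 fold changes (Hdac4-knockdown minus Control) with 95% intervals of the 7 tested contractile genes and Srf (squares) and of their 20 tested paralogs (circles), colored by call. Lmod1 is highest at 4.06 and Actc1 lowest at -3.02, and the non-muscle actins Actb and Actg1 lie on the lower side.

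The non-muscle genes that build the cytoskeleton of most cells also differed. β-actin (Actb) fell from 3213 ± 54.3 to 1735 ± 60.2 CPM (SD, n = 3; log2 fold change -0.89) and γ-actin (Actg1) from 2546 ± 79.9 to 1526 ± 46.8 CPM (log2 fold change -0.74). Transgelin 2 (Tagln2), the broadly expressed relative of Tagln, had a log2 fold change of -0.70, and Tpm4, a non-muscle tropomyosin, of -0.76. The light chain genes Myl12a and Myl12b, which serve non-muscle myosin, had log2 fold changes of -0.29 and -0.58, opposite to Myl9. Myh9, the main non-muscle myosin heavy chain, was at 2043 ± 94.9 and 2045 ± 42.4 CPM, a log2 fold change of 0.00 that did not pass the test (adjusted p = 0.976 from edgeR) but was 0.09 and called higher with upper quartile normalization (0.0376), and Tpm1 did not pass either (0.04, or 0.13 and called higher with upper quartile normalization). Tmod2, a tropomodulin that caps actin filaments and is best known from neurons, rose from 0.359 ± 0.0392 to 3.05 ± 0.643 CPM (log2 fold change 3.07). Tmod1 of the same family fell (-1.21, adjusted p = 5.82e-05 from edgeR), Tmod3 rose (0.21, adjusted p = 0.00424, or 0.0602 without Control replicate 2) and Tmod4 did not pass (0.05). Myh10 (-0.20) and Tpm3 (-0.09) were called lower, and the Tpm3 call was lost with upper quartile normalization (adjusted p = 0.976). Cnn3 (0.14) and Myl6 (0.16) rose by small amounts. Some paralogs share sequence with other genes, and their counts and shares are uncertain: of their 100-base stretches, 30.1% occur elsewhere for Tmod1, 29.9% for Actg1, 24.0% for Myl12b, 16.3% for Myl12a, 15.8% for Tpm3, 11.1% for Cnn3 and 9.22% for Tpm4.

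To compare the forms within a family, each gene's CPM per kilobase was divided by the sum over the family in the same library. Summed over the 6 actins, the level fell from 2345 ± 44.6 to 1304 ± 43.1 CPM per kb (SD, n = 3), or 55.6% of Control. Acta2 made up 6.21%, 5.93% and 6.02% of actin in Control libraries and 5.09%, 4.92% and 5.51% in Hdac4-knockdown libraries. Its share fell by 0.884 percentage points, while Actb and Actg1 fell in level as well. Actg2 rose from 0.0571 ± 0.00878% to 0.216 ± 0.0358% of actin and remained a trace form. Among the 4 muscle actins alone, Acta2 rose from 75.5 ± 0.271% to 82.1 ± 1.39%, as Acta1 fell from 22.5 ± 0.503% to 14.1 ± 1.39%.

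The leiomodins showed the largest difference in share, on low counts. Lmod2 was counted 32, 38 and 40 times in Control and 14, 6 and 8 times in Hdac4-knockdown libraries. Lmod3 was counted 75, 50 and 54 times in Control and 6, 16 and 9 times in Hdac4-knockdown libraries. Both are striated muscle forms, and the part of the myogenic RNA in their fall was not tested. Lmod1 was 6.62%, 8.84% and 2.76% of leiomodin in Control libraries and 82.4%, 86.0% and 85.5% in Hdac4-knockdown libraries, while the summed level differed far less (1.63 ± 0.113 against 1.98 ± 0.260 CPM per kb). Myl9 rose from 1.5 ± 0.151% to 6.30 ± 0.473% of the regulatory light chains, with Myl12a at 84.9 ± 0.580% in Hdac4-knockdown libraries. Tpm2 rose from 11.1 ± 0.134% to 13.7 ± 0.459% of tropomyosin, although its own level did not rise, while Tpm4 fell from 56.5 ± 0.209% to 44.2 ± 0.313%. Without the correction for length, the difference in share was 0.940 in place of 2.58 percentage points for Tpm2, 1.78 in place of 4.80 for Myl9 and 0.094 in place of 0.159 for Actg2 among actins. Cnn2 and Cnn3 shared the calponins nearly evenly, at 49.1 ± 0.335% and 50.9 ± 0.332% in Control libraries and 45.6 ± 0.818% and 54.4 ± 0.828% in Hdac4-knockdown libraries. Each share named had groups that did not overlap, with p = 0.1 in a two-sided exact permutation test and p = 0.108 after adjustment over 27 shares, which 3 libraries against 3 cannot bring below 0.05.

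**Figure D3:**
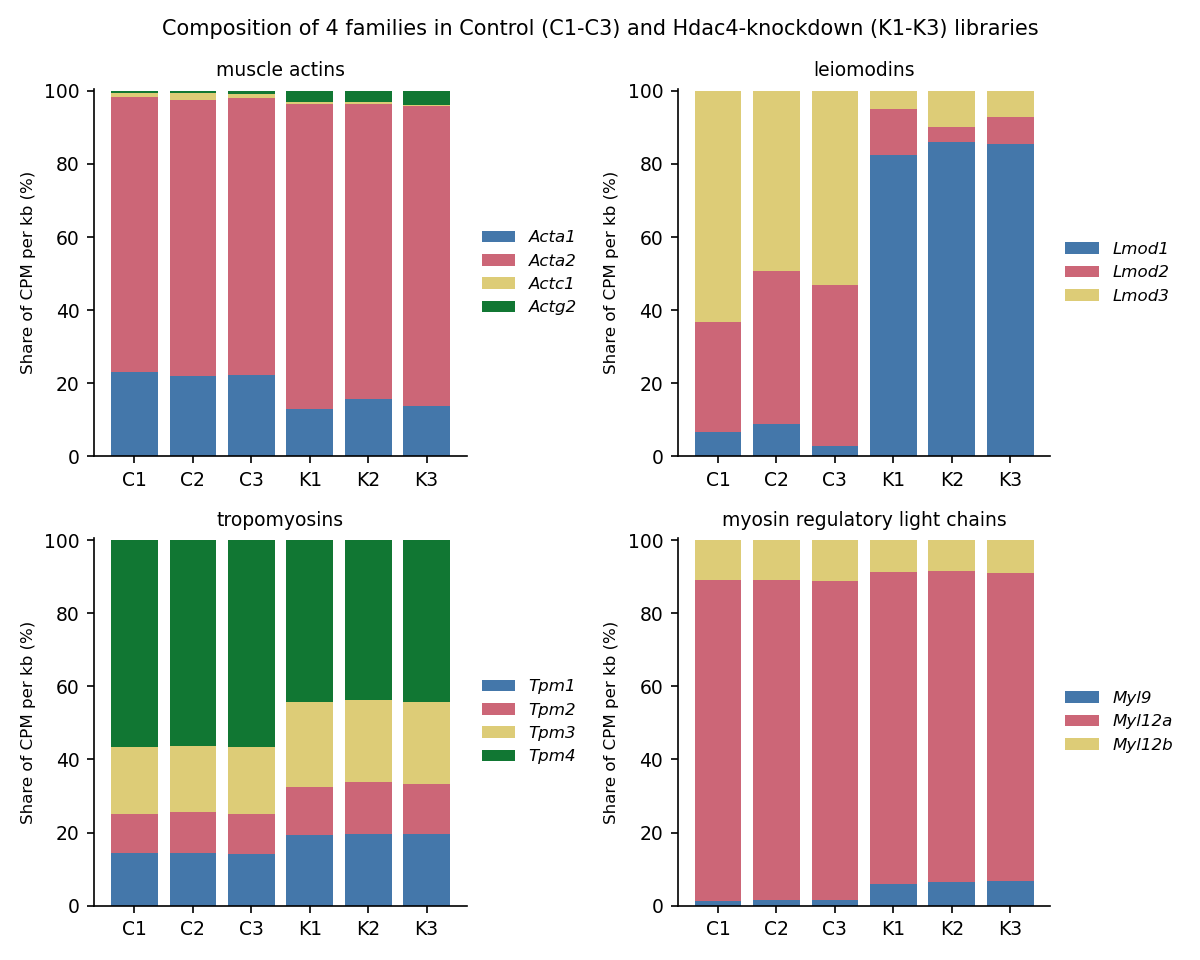
Share of each gene (percent of the family's CPM per kilobase of exon) in each library for the muscle actins, leiomodins, tropomyosins and myosin regulatory light chains, with Control libraries as C1 to C3 and Hdac4-knockdown libraries as K1 to K3. Lmod1 is at most 8.84% of leiomodin in Control and at least 82.4% in Hdac4-knockdown libraries, on low counts, while Acta2 stays the main muscle actin in every library.

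The partners of SRF were then examined. Myocardin (Myocd), the cofactor of differentiated smooth muscle, had 0 counts in all 6 libraries and was not tested. A level too low to be counted remains possible. Mrtfa fell from 84.7 ± 4.66 to 71.5 ± 3.07 CPM (SD, n = 3; log2 fold change -0.24, adjusted p = 0.000286 from edgeR) and Mrtfb from 48.6 ± 2.13 to 42.0 ± 3.67 CPM (log2 fold change -0.21, adjusted p = 0.00583). The Mrtfb call was lost with upper quartile normalization (adjusted p = 0.094) and without Hdac4-knockdown replicate 3 (0.0681). In the list of 25 SRF cofactors and upstream regulators, 24 were tested, 6 were called higher and 16 lower, beside 38.0% and 37.1% of all genes, and their log2 fold changes had a median of -0.27 (8 higher and 13 lower with upper quartile normalization). The small GTPase gene Rhob fell from 614 ± 11.8 to 118 ± 2.41 CPM (log2 fold change -2.38), and Nkx2-5, which encodes a cardiac homeobox factor that binds SRF, fell from 8.67 ± 1.46 to 1.13 ± 0.265 CPM (log2 fold change -2.93). Nkx2-5 moved in the same direction as the skeletal muscle markers, and the part of the myogenic RNA in its fall was not tested. Scai, which encodes a suppressor of MRTF activity, rose from 16.8 ± 1.31 to 34.2 ± 5.72 CPM (log2 fold change 1.02), and Klf4, a known repressor of smooth muscle genes, rose from 161 ± 6.46 to 271 ± 11.3 CPM (log2 fold change 0.75).

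Targets known for each kind of SRF partner were examined separately. Of 25 actin and adhesion genes known as targets of MRTF and SRF, all were tested, 18 were called lower and 3 higher, with a median log2 fold change of -0.44 (-0.35 with upper quartile normalization). Fhl1, which encodes a LIM-domain protein, fell from 207 ± 4.11 to 12.9 ± 1.16 CPM (SD, n = 3; log2 fold change -4.00, adjusted p = 2.02e-21 from edgeR), and Ankrd1, also known as a YAP target, from 533 ± 7.76 to 50.5 ± 2.82 CPM (log2 fold change -3.40). The skeletal muscle markers also fell, as given above, and the part of the myogenic RNA in the falls of Fhl1 and Ankrd1 was not tested. Cyth3 (log2 fold change 0.94) and the connective tissue growth factor gene Ccn2 (0.86) rose. Of 14 immediate early genes known as targets of the ternary complex factors and SRF, 9 were called higher and 4 lower, with a median log2 fold change of 0.42. Fosb rose from 3.16 ± 0.390 to 13.9 ± 0.649 CPM (log2 fold change 2.13) and Fos from 9.94 ± 0.766 to 20.7 ± 1.81 CPM (1.06), whereas Dusp1, a phosphatase gene, fell (-1.88), as did Nr4a1 (-0.67). The difference between these lists was not tested, and both are to be read beside the 38.0% of all genes called higher and 37.1% called lower.

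Other smooth muscle genes moved in both directions. Of 25, 18 were tested, 7 were called higher and 9 lower, beside 38.0% and 37.1% of all genes, and the median was -0.23 on the log2 scale. With 1 library left out it ranged from -0.30 to -0.11, with -0.12 without Control replicate 2 and -0.11 without Hdac4-knockdown replicate 1. Mylk, the kinase that phosphorylates the regulatory light chain, rose from 4.39 ± 0.212 to 22.4 ± 0.625 CPM (SD, n = 3; log2 fold change 2.35, adjusted p = 8.29e-15 from edgeR), in the same direction as Myl9. Cacna1c, the L-type calcium channel of smooth and cardiac muscle, rose from 1.39 ± 0.0713 to 30.7 ± 0.823 CPM (log2 fold change 4.46). Desmin (Des) fell from 737 ± 18.5 to 102 ± 8.39 CPM (log2 fold change -2.86) and Casq2, a calcium-binding protein of the sarcoplasmic reticulum, from 7.80 ± 0.543 to 1.83 ± 0.492 CPM (-2.09). Both are also used by striated muscle, whose markers fell as given above, and the part of that RNA was not tested. Ppp1r14a, Pcp4l1 and Agtr1a had 0 counts in every library and Pln and Kcnmb1 at most 4.

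**Figure D4:**
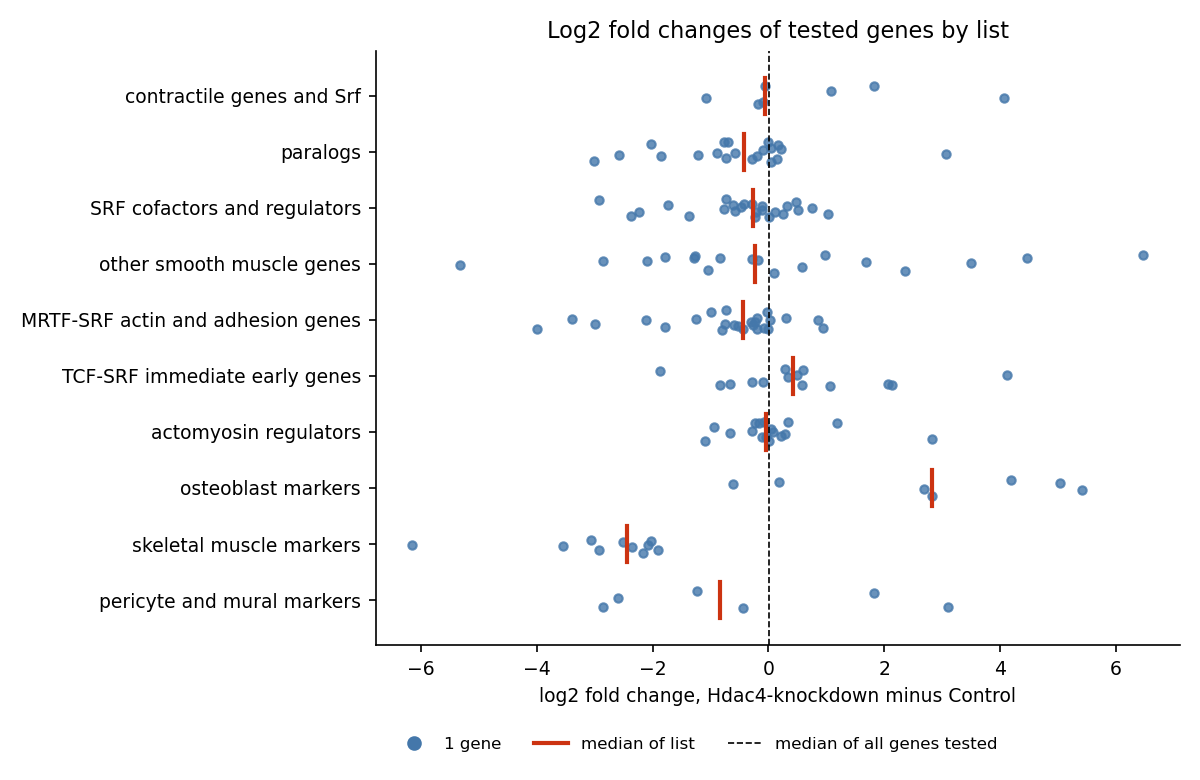
Log2 fold changes (Hdac4-knockdown minus Control) of the tested genes in each list, with a point for each gene, a red line at the median of the list and a dashed line at the median of all genes tested (0.014). The immediate early genes lie mostly on the higher side (median 0.42), the MRTF and SRF actin and adhesion genes mostly on the lower side (median -0.44), and the contractile genes on both.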

How the data were processed

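Total RNA of 6 MC3T3-E1 samples was poly-A selected and sequenced. The authors deposited, for each library, raw counts per Ensembl gene without normalization, and the submitters' processing notes name FastQC, STAR 2.7.3a, HTSeq 0.12.4 and mm10. Lines for reads outside genes (3.17% to 5.07% of reads), ambiguous and multiply aligned reads were left out. GENCODE M21 (GRCm38) matched 53706 of 53801 identifiers and gave positions and union exon lengths.

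Differences between groups came from the quasi-likelihood F test of edgeR 4.0.16 (R 4.3.3), after TMM scaling and the filterByExpr filter, with Benjamini-Hochberg adjusted p-values, and the script was tested on simulated data. SD and n refer to 3 libraries. Exact permutation tests were two-sided. Libraries of the same group differed by more than sampling noise (chi-square per degree of freedom 3.38 to 9.15). Deviations of same-numbered libraries from their group means correlated at -0.00523 to 0.0956 across genes, and the numbers do not pair the groups. Figures were drawn with matplotlib 3.10.9.

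The 10 genes, the lists and the tests were chosen with earlier results of these data known. Named are the 10 genes, their paralogs, Hdac4, Myocd, Mrtfa, Mrtfb and, in each other list, up to 2 called genes at either end of the log2 fold change with a mean of at least 100 counts and no overlap between groups. Further markers, transcripts at or near 0 counts and Gm48529 were named after their values were seen. Desmin and Rgs5 each stand in 2 lists. Alternatives were DESeq2 size factors, upper quartile or library size alone, no filter or 10 counts in every library, DESeq2 1.42.0, a replicate block, higher fold change thresholds and leaving out each library.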

Additional observations from a re-analysis of the deposited data

Results flagged for a closer look

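Reads that fell outside annotated genes, which no comparison used, made up 4.79 ± 0.241% of reads in Hdac4-knockdown libraries and 3.28 ± 0.122% in Control libraries (SD, n = 3). The lowest Hdac4-knockdown library (4.64%) was above the highest Control library (3.41%). Ambiguous reads went the other way, at 6.355% to 6.510% in Control and 5.836% to 5.921% in Hdac4-knockdown libraries. So did multiply aligned reads, at 4.610% to 4.769% and 3.879% to 4.147%. What the reads outside genes are was not tested.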

How the results depend on the processing

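The fold changes of Acta2, Actg2, Myl9 and Lmod1 kept their direction and call in every alternative in which the gene was tested. The number of the 10 genes called higher, 3, was 2 to 4 in the alternatives, and was 3 or 4 when single libraries were left out. The number called lower, 3, was 1 with upper quartile normalization and with log2 fold change thresholds of 0.5 and 1, and was 2 or 3 without single libraries. With upper quartile normalization Cnn2 turned to 0.026. Over all genes, 10914 calls became 6458 with a threshold of 0.5 and 3940 with a threshold of 1, and ranged from 10578 to 10921 without single libraries. A replicate block gave 10964 calls and changed no call among the 10 genes. Without a correction for length, by construction, the differences in share moved to 0.094 percentage points for Actg2 among actins, 5.27 for Acta2 among muscle actins, 0.940 for Tpm2 and 1.78 for Myl9. Without single libraries the differences ranged from -1.05 to -0.757 for Acta2 and 0.139 to 0.17 for Actg2 among actins, 5.89 to 7.28 for Acta2 among muscle actins, -3.88 to -3.07 for Cnn2, 2.33 to 2.78 for Tpm2, 4.58 to 5.05 for Myl9 and 76.9 to 80.0 for Lmod1. At these counts no difference was detectable for Cnn1 and Tagln, and for Tagln the part of the shared bases was not tested. The Myh11 call depended on the filter and the tool.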

Other observations

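Regulators of actomyosin, a list not described above, had 18 genes, of which 17 were tested, 4 called higher and 7 lower, beside 38.0% and 37.1% of all genes tested, with a median log2 fold change of -0.04 that turned to 0.05 with upper quartile normalization (6 higher and 5 lower) and ranged from -0.07 (without Control replicate 2) to 0.01 (without Hdac4-knockdown replicate 2) with 1 library left out. The kinase gene Pak1 fell from 155 ± 1.67 to 72.3 ± 0.991 CPM (SD, n = 3; log2 fold change -1.10, adjusted p = 7.09e-15 from edgeR) and the calmodulin gene Calm3 from 437 ± 13.3 to 227 ± 4.99 CPM (-0.94). Rgs4, which dampens signaling by G proteins, rose from 2.75 ± 0.768 to 6.23 ± 0.406 CPM (1.18), and the kinase gene Cdc42bpa from 112 ± 2.42 to 142 ± 6.98 CPM (0.34).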
